A study of Homo sapiens with 9 samples.

Results

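The replication-dependent histone genes were taken as the protein-coding genes whose current symbols begin with H2AC, H2BC, H3C or H4C followed by a digit, together with H1-1 to H1-6. The rule gave 65 genes, of which 6 encode linker histone H1, 16 encode H2A, 17 encode H2B, 13 encode H3 and 13 encode H4. A transcript of 42 of them could be matched by identifier to the quantified annotation, out of 56349 genes matched in all, and the other 23 were not analysed here. Of the 42, 21 reached 10 or more estimated counts in 3 samples or more, which was required for testing. These 21 were 2 of 6 H1 genes, 7 of 16 H2A genes, 7 of 17 H2B genes, 3 of 13 H3 genes and 2 of 13 H4 genes, and every test below concerns only them.

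RNA was sequenced from nuclear and cytoplasmic fractions of HEK293 cells, a human embryonic kidney line that the methods name as 293 T, to ask which mRNAs depend on the m6A methyltransferase complex for nuclear export. Control cells received a control siRNA, and Virilizer/WTAP RNAi cells received siRNAs against WTAP and KIAA1429 (Virilizer, now VIRMA), subunits of that complex, at 10 nM. The cells were transfected again at 48 hours and incubated for 72 hours in all. The 9 samples were 3 control nuclear, 3 RNAi nuclear, 1 control cytoplasmic (replicate 2) and 2 RNAi cytoplasmic (replicates 1 and 2). The control cytoplasm therefore had no replicate, the spread assigned to it came from the other groups, and the labels do not say that replicates were separate cultures, so the tests measure only the spread between these samples.

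Replication-dependent histone genes supply the histones that package newly copied DNA, and their mRNAs build up in S phase and are degraded when DNA synthesis stops. They are the only metazoan mRNAs that mostly lack a poly(A) tail. Their 3′ ends are cut just after a conserved stem-loop, which binds the stem-loop binding protein SLBP and takes over the work of the tail in export, translation and decay. The libraries were made with an mRNA kit that selects poly(A) tails, so what was counted is the part of the histone RNA that such a selection retains, and not the whole histone mRNA pool.

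The stem-loop was looked for in the reference genome, because it is the feature that sets these genes apart from other mRNAs. A 16-base pattern, made of GG, 3 free bases, TT, 1 free base, T, 1 free base, A, 3 free bases and CC in this order, was searched on the coding strand in the 150 bases after the stop codon (GRCh37). It was present in 64 of the 65 genes (98.46%), the exception being H2BC12L, and in 42 of 19383 other protein-coding genes (0.22%). Of 10 different sequences found, the ones carried by the 21 tested genes are printed below 5′ to 3′ with the 4-base loop in capitals and the 6-base stems in lower case.
Form of H1-2, H1-4, H2AC25 and 12 other tested genes: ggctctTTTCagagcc
Form of H2BC4, H2BC5 and H2BC11: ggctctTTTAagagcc
Form of H4C11 and H4C16: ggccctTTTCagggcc
Form of H2AC11: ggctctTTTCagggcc

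The first form was the commonest, with 38 of the 65 genes, and those printed for H2BC4 and for H4C11 were found in 8 genes each. All carriers of the H4C11 form were H4 genes. The stem-loop of H2AC25 lay at chr1:228645070-228645085 on the minus strand, 41 bases after the stop codon, and that of H1-2 at chr6:26055972-26055987 on the minus strand, 28 bases after it. In H2AC11, at chr6:27101294-27101309 on the plus strand, the 3′ arm of the stem differed from that of the commonest form. Of the 65 genes, 51 lay on chromosome 6 (25723625 to 27861669, the major histone cluster), 12 on chromosome 1, 1 on chromosome 12 (H4C16) and 1 on chromosome 21 (H2BC12L). The tested genes were 14 from chromosome 6, 6 from chromosome 1 and H4C16.

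Total estimated counts per sample ranged from 11627403 to 19036141, and the histone genes took 1000.2 to 2017.5 of them, or 0.006984% to 0.01485% of the counts matched to genes. At these depths 3 counts correspond to 0.19 to 0.303 CPM (estimated counts scaled to the library), which covers counting error only. The knockdown was visible in the RNA itself. WTAP lay at 23.0 to 27.6 CPM in the control nuclei and 12.2 to 15.6 in the RNAi nuclei, and at 37.5 CPM in the control cytoplasm against 10.8 and 11.9 after RNAi. VIRMA fell by 1.08 on the log2 scale in the nucleus (FDR 0.0314) and by 2.07 in the cytoplasm (FDR 0.00268). The fractions differed in the nuclear RNA MALAT1, at 88.3 to 199 CPM in nuclei and 5.47 to 13.8 CPM in cytoplasm, while mitochondrially encoded genes took 18.5% to 30.7% of nuclear and 14.8% to 19.8% of cytoplasmic counts. Of the 8 marker genes listed for the cell line, 6 were tested (KRT8, KRT18, VIM, NEFM, PAX2 and LIN28B) and NEFL and LHX1 were not analysed here. Of 5 markers of other cell types, PTPRC, CD3E and ALB, which mark blood and liver cells, stayed at or below 0.22 CPM in every sample, the collagen gene COL1A1 lay at 56.5 to 91.5 CPM, and PECAM1 was not analysed here.

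A few genes held most of the histone reads. H1-2, a linker histone that binds DNA between nucleosomes, took 29.8% of the estimated counts of the 42 genes over the 9 samples, and H2AC25, an H2A gene outside the major cluster, took 20.9%. H1-4, another linker histone gene, took 8.1%, H2AC19 (H2A) took 7.0% and H2BC21 (H2B) took 5.2%. The 12 most abundant genes together held 87.9%. At the other end, H2AC1, H2BC1, H2BC12 and H2BC12L were listed at 0 in all samples, and the remaining 17 measured genes that missed the filter did not exceed 0.85 CPM in any sample. Per length, in TPM (counts scaled to transcript length and library), H2AC25 came first with a mean of 70.68 over the 9 samples, followed by H1-2 with 56.15, H2AC19 with 25.81 and H1-4 with 13.52.

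**Figure D1:**
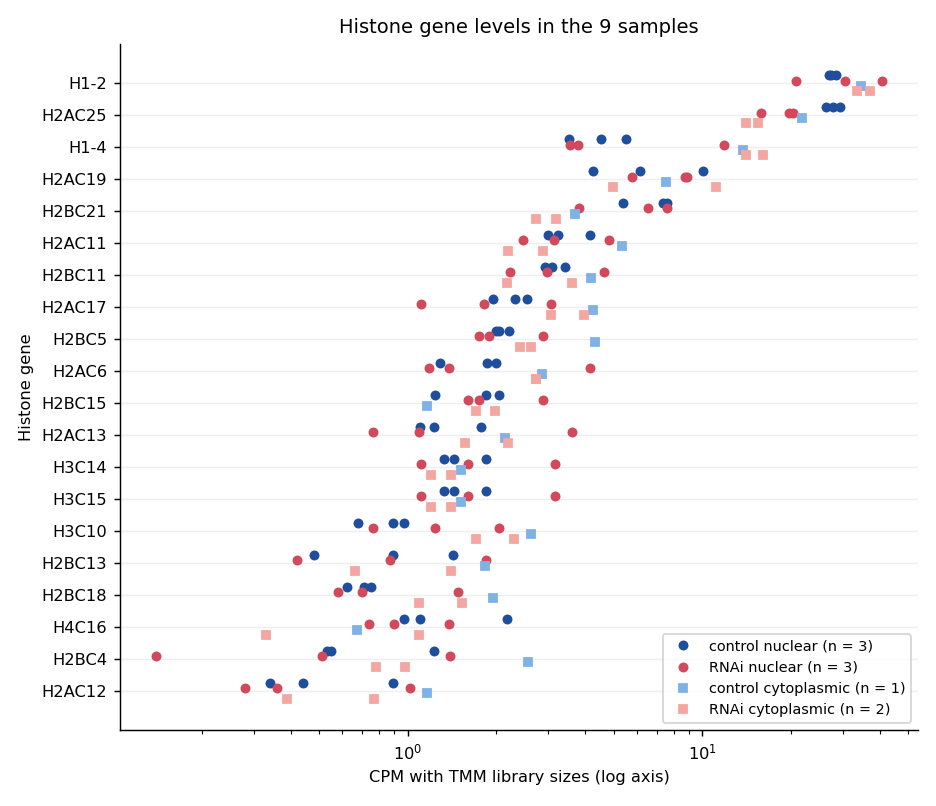
Level of 20 histone genes (rows) in the 9 samples, as CPM with TMM library sizes on a log axis; circles are nuclear and squares cytoplasmic samples, and offsets within a row separate the groups. H1-2 and H2AC25 stand above the others, H1-4 is higher in the 3 cytoplasmic samples than in the 6 nuclei, and H4C11, listed at 0 in 6 samples, is not drawn.

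Among the linker histone genes, H1-2 measured 26.9, 28.4 and 27.3 CPM in the control nuclei, 20.8, 40.8 and 30.6 in the RNAi nuclei, 34.4 in the control cytoplasm, and 33.5 and 36.95 in the RNAi cytoplasm. Its control nuclei were close together, and its RNAi nuclei lay on both sides of them. H1-4 measured 4.53, 5.52 and 3.54 CPM in control nuclei, 3.55, 11.9 and 3.78 in RNAi nuclei, 13.7 in control cytoplasm, and 16.04 and 14.1 in RNAi cytoplasm. RNAi nuclear replicate 2 was the only nuclear sample near the cytoplasmic level of H1-4.

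The H2A genes package DNA in the nucleosome core beside H2B. H2AC25 measured 26.3, 29.2 and 27.9 CPM in control nuclei and 15.9, 20.3 and 19.7 in RNAi nuclei, with 21.8 in control cytoplasm and 15.5 and 14.1 in RNAi cytoplasm. In both fractions every RNAi sample of H2AC25 lay below every control sample. H2AC19 measured 4.26, 6.13 and 10.1 CPM in control nuclei, 5.77, 8.90 and 8.72 in RNAi nuclei, 7.54 in control cytoplasm, and 4.98 and 11.2 in RNAi cytoplasm, so that its replicates spread more widely than its groups. H2AC11 measured 3.23, 3.00 and 4.16 CPM in control nuclei, 3.13, 4.82 and 2.47 in RNAi nuclei, 5.35 in control cytoplasm, and 2.88 and 2.19 in RNAi cytoplasm. Its nuclear groups overlapped, and both RNAi cytoplasmic samples were below the control one. H2AC17 lay at 1.95 to 2.54 CPM in control nuclei, 1.11 to 3.06 in RNAi nuclei, 4.26 in control cytoplasm, and 3.97 and 3.06 in RNAi cytoplasm. H2AC6 measured 1.99, 1.29 and 1.86 CPM in control nuclei, 1.18, 4.17 and 1.38 in RNAi nuclei, 2.86 in control cytoplasm, and 2.73 in both RNAi cytoplasmic samples. H2AC13 measured 1.10, 1.23 and 1.77 CPM in control nuclei, 0.76, 3.61 and 1.09 in RNAi nuclei, 2.13 in control cytoplasm, and 1.56 and 2.19 in RNAi cytoplasm. For both H2AC6 and H2AC13 the highest of all 9 values was that of RNAi nuclear replicate 2.

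Of the H2B genes, H2BC21 measured 5.36, 7.36 and 7.61 CPM in control nuclei, 3.82, 7.60 and 6.54 in RNAi nuclei, 3.71 in control cytoplasm, and 3.19 and 2.73 in RNAi cytoplasm. All its nuclear values were above all its cytoplasmic values. H2BC11 measured 3.09, 3.41 and 2.92 CPM in control nuclei, 2.23, 4.63 and 2.98 in RNAi nuclei, 4.2 in control cytoplasm, and 2.18 and 3.61 in RNAi cytoplasm. H2BC5 measured 1.99, 2.04 and 2.21 CPM in control nuclei, 1.74, 2.87 and 1.89 in RNAi nuclei, 4.32 in control cytoplasm, and 2.41 and 2.62 in RNAi cytoplasm. The control cytoplasm was the highest of the 9 samples for H2BC5, whereas for H2BC11 it was exceeded by RNAi nuclear replicate 2. H2BC15 differed from the other members of its class, with 1.16 CPM in control cytoplasm as its lowest value and 1.24 to 2.87 in the other samples.

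H3 and H4, which together form the centre of the nucleosome, were scarcer. H3C14 and H3C15 carried identical estimates in every sample (1.11 to 3.15 CPM), as did H4C14 and H4C15, so the quantification divided their reads equally between copies and these pairs are not independent measurements. H3C10 lay at 0.68 to 2.62 CPM and H4C16 at 0.33 to 2.18 CPM. H4C11 had values above 0 in only 3 samples, at 1.29 CPM in control nuclear replicate 2, and 0.70 and 1.02 CPM in RNAi nuclear replicates 1 and 2, and was listed at 0 in the other 6, among them all 3 cytoplasmic samples. No fold change is given for it. Summed per class, which is less affected by the division of reads between copies, the 6 measured H4 genes reached 6.257 to 15.01 TPM in nuclei and 3.013 to 5.061 TPM in cytoplasm, from 8.674 to 54.41 estimated counts per sample. These ranges did not overlap, but without H4C11 they did, at 4.553 to 8.065 TPM and 3.012 to 5.061 TPM. The nuclear and cytoplasmic ranges of the other classes overlapped, with 43.27 to 109.7 TPM against 68.23 to 84.25 for H1, and 81.64 to 164.1 against 83.97 to 128.4 for H2A. The other tested genes not described singly, H2BC13, H2BC18, H2BC4 and H2AC12, lay between 0.14 and 2.56 CPM.

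Because processed histone mRNA ends a few bases after the stem-loop, the quantified transcript models were divided into those ending there and those running more than 50 bases past it or lying downstream of it, from the positions in the current annotation and the deposited lengths. Of 58 transcripts, 23 were placed past the stem-loop and 35 were not, and the latter are called models at the stem-loop here. Of these 35, the model of H2BC12L has no stem-loop, and 10, with 30.8% of the histone counts, are over 50 bases shorter in the deposited files than in the current annotation, so that they may not reach it. Most of those counts were of H2AC25 and H2AC19. The 23 models past the stem-loop held 22.2%, 22.2% and 21.3% of the histone counts in the control nuclei and 22.3%, 22.5% and 22.0% in the RNAi nuclei. Their share was 18.7% in the control cytoplasm and 16.2% and 15.3% in the RNAi cytoplasm. The share was thus 21.9% ± 0.5 (SD, n = 3) in control and 22.3% ± 0.3 (SD, n = 3) in RNAi nuclei, above all 3 cytoplasmic values. Longer transcripts collect more reads, and as a share of TPM the fractions overlapped, at 7.4% to 10.5% in nuclei and 7.6% to 9.5% in cytoplasm. The long forms belonged to few genes. H2BC21 was represented by a single model of 2223 bases and H2AC11 by a single model of 2239 bases. All models of H2BC15, H2BC18, H2BC4, H3C14, H3C15 and H4C16 ran past the stem-loop, as far as the deposited lengths show. For 6 of the 23 models, those of H2AC11, H3C14 and H3C15 and 1 each of H2BC18, H2BC4 and H4C16, the assignment rests only on a deposited length that exceeds the current model by 111 to 1746 bases, and where these extra bases lie is not known. H2BC11 had 81.9% of its counts in long forms over all samples, H2AC6 32.0% and H2BC5 27.7%, whereas H1-2, H1-4, H2AC25, H2AC19 and H2AC17 each had one model, placed at the stem-loop. For H2AC25 and H3C10 the current annotation runs 390 and 769 bases past the stem-loop, beyond the deposited models, so that the ends of their RNAs cannot be read from these estimates.

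**Figure D2:**
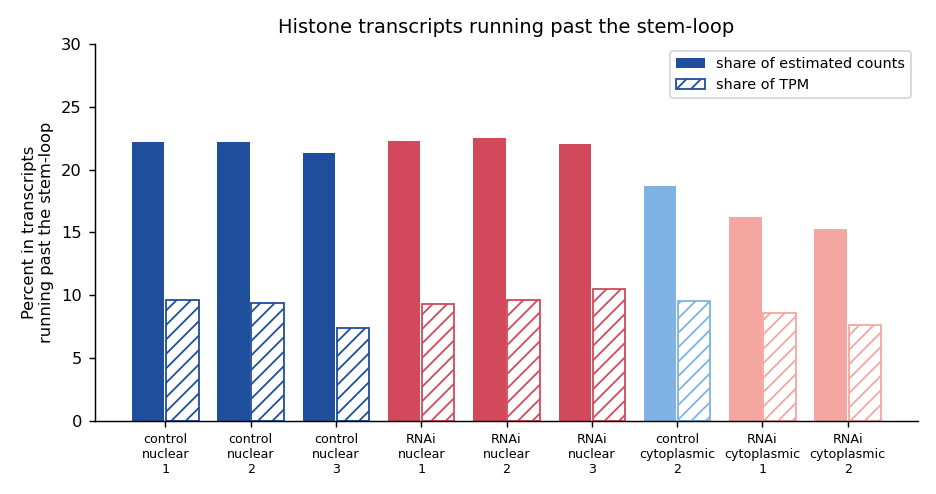
Percent of the histone counts (filled bars) and of the histone TPM (hatched bars) in transcript models running past the stem-loop, per sample, coloured by group. By counts the 6 nuclei lie between 21.3 and 22.5 and the 3 cytoplasmic samples between 15.3 and 18.7, whereas by TPM the fractions overlap.

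One library stood apart. RNAi nuclear replicate 2 was the highest of the 3 RNAi nuclei for 20 of the 21 tested genes, the exception being H4C16. Over all 16181 tested genes it was the highest for 34.8%. H2AC12 and H4C11, counted among the 20, would not have passed the filter without this library, and H3C14 and H3C15 carry identical estimates. Relative to the mean of the control nuclei, the median of the 20 genes other than H4C11 was 0.80 in it on the log2 scale, against -0.48 in RNAi nuclear replicate 1 and -0.12 in replicate 3. The control nuclei had medians of -0.07, 0.04 and -0.01. The summed level of the tested genes was 131 CPM in that library, 67.8 and 90.7 CPM in the other RNAi nuclei and 90.9 to 103 CPM in the control nuclei. Beside this, it had the lowest depth (11627403 counts), 19.5% mitochondrially encoded counts against 28.3% and 22.5% in the other RNAi nuclei, 158 CPM of MALAT1 against 163 and 162, and a summed level of 18 S phase genes of 2433 CPM against 2315 and 2424. The part of these measures in the histone difference was not tested. Comparisons of the histone genes below that use this library are also given without it. Since it was singled out by these same genes, lower histone medians without it follow from that choice. Medians without RNAi nuclear replicate 1, the lowest at -0.48, are not given.

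**Figure D3:**
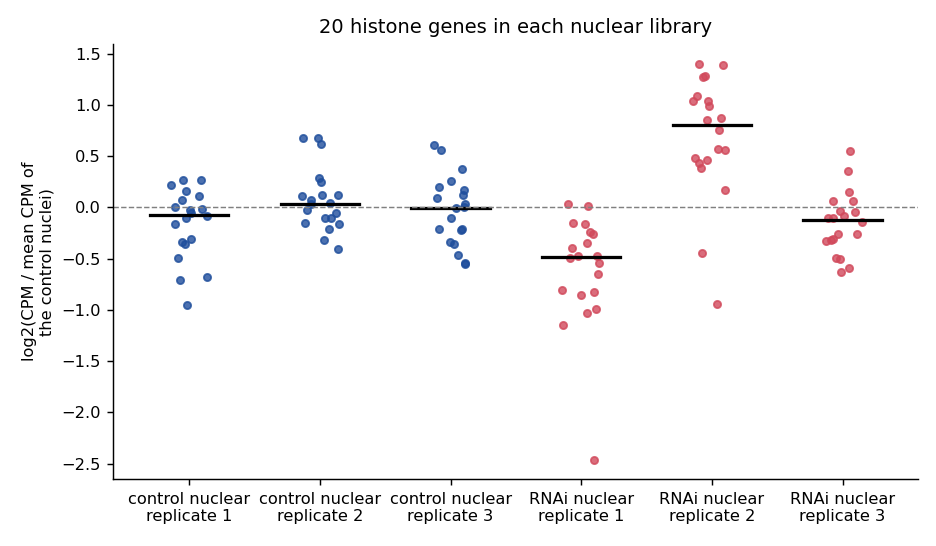
Each point is one of 20 histone genes in one nuclear library, as log2 of its CPM over its mean CPM in the control nuclei, and each black line is the median of the 20. RNAi nuclear replicate 2 has a median of 0.80, the other 5 nuclear libraries have medians between -0.48 and 0.04, and horizontal scatter within a library only separates points.

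The distribution between nucleus and cytoplasm was compared first in control cells, by edgeR's quasi-likelihood test over all 16181 genes, calling a gene where its Benjamini-Hochberg FDR was under 0.1 and its log2 fold change beyond 0.5. Of the 21 histone genes, 6 were lower in the nucleus and 1 was higher, whereas of all tested genes 22.7% were called lower and 28.0% higher. The 6 lower genes were H2BC4 (log2 fold change -1.70, SE 0.68, FDR 0.0594), H3C10 (-1.62, SE 0.46, FDR 0.0144), H1-4 (-1.58, SE 0.51, FDR 0.0250), H2BC18 (-1.48, SE 0.48, FDR 0.0261), H2BC5 (-1.05, SE 0.30, FDR 0.0161) and H2AC17 (-0.90, SE 0.41, FDR 0.0915). H2BC21 was the one higher gene, at 0.86 (SE 0.37, FDR 0.0790). The abundant H1-2 (-0.32, SE 0.27, FDR 0.340) and H2AC25 (0.35, SE 0.17, FDR 0.115) did not pass. The median of the 20 genes other than H4C11 was -0.65, against 0.04 over all genes. All of these values share the single control cytoplasmic sample, so that a deviation of that sample and a difference between fractions cannot be told apart. By the DESeq2 Wald test 3 genes were lower (H1-4, H2BC5 and H3C10) and none higher. Over all alternatives H2AC17 did not pass in 12 of 19, H2BC21 in 9 of 19 and H2BC4 in 8 of 18. Without RNAi nuclear replicate 2, which adds to the shared spread only, H2AC6 was also called lower (-0.73, FDR 0.0992).

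In the RNAi cells H1-4 (-1.27, SE 0.42, FDR 0.0232) and H2AC17 (-0.86, SE 0.36, FDR 0.0587) were lower in the nucleus and H2BC21 was higher (0.99, SE 0.32, FDR 0.0189), 2 and 1 of 21 beside 24.9% and 32.9% of all tested genes. The median without H4C11 was -0.08, against 0.04 over all genes. This comparison turned on RNAi nuclear replicate 2. Without it the filter left 19 histone genes, and 6 of them were lower in the nucleus, beside 24.3% of all genes tested then. They were H1-4 (-2.04, SE 0.23, FDR 0.000170), H2AC17 (-1.27, SE 0.32, FDR 0.00917), H2AC6 (-1.08, SE 0.32, FDR 0.0186), H2BC18 (-0.996, SE 0.40, FDR 0.0588), H2AC13 (-0.98, SE 0.40, FDR 0.0621) and H3C10 (-0.98, SE 0.38, FDR 0.0541). H2BC21 was still the one higher gene (0.80, SE 0.32, FDR 0.0592). The median became -0.45. H2AC17 did not pass in 10 of its 20 alternatives, among them DESeq2 (FDR 0.124) and the fits without RNAi nuclear replicate 1 (-0.55, FDR 0.181), RNAi nuclear replicate 3 (FDR 0.137) and RNAi cytoplasmic replicate 1 (FDR 0.280). H1-4 was lost when RNAi cytoplasmic replicate 1 was left out (FDR 0.101), over a range of adjusted p from 1.30e-09 to 0.101 across its alternatives.

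**Figure D4:**
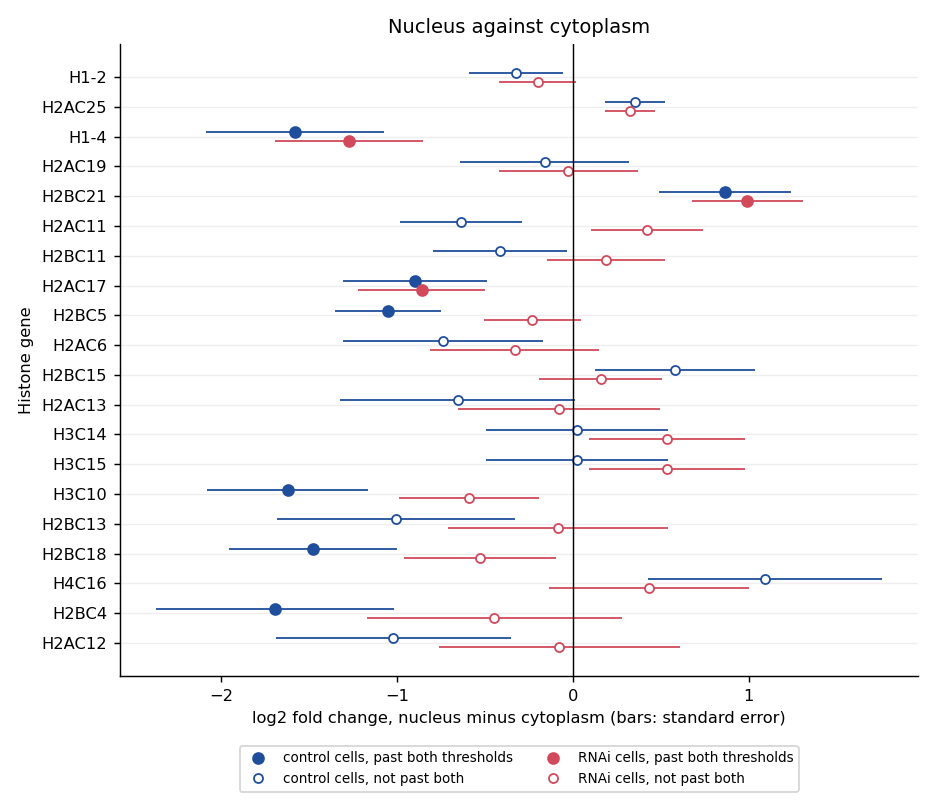
Log2 fold change of nucleus against cytoplasm for 20 histone genes in control (blue) and RNAi (red) cells; points are edgeR estimates from all 9 samples, bars are standard errors, and filled points passed both thresholds. H1-4 and H2AC17 lie below 0 and H2BC21 above 0 in both, and most other estimates are nearer 0 in RNAi cells.

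The tested genes other than H4C11 were also split by transcript form. The 11 counted mostly in models placed at the stem-loop had a median nuclear against cytoplasmic difference of -0.90 in control cells, with 4 lower and 0 higher, and the 9 counted mostly in longer models had 0.02, with 2 lower and 1 higher. Over all tested genes 22.7% were called lower and 28.0% higher in control cells. The 9 included H3C14 and H3C15, whose estimates are identical in every sample, and 0.02 was the value of this pair. In RNAi cells the medians were -0.20 and 0.42. Without RNAi nuclear replicate 2 they were -0.85 and 0.05 in RNAi cells, over 10 and 9 genes, and -0.81 and 0.03 in control cells. The 0.05 and 0.03 were again the value of H3C14 and H3C15, so that these medians rest on a measurement counted for both genes. H2BC21 belonged to the longer group and H1-4, H3C10, H2BC5 and H2AC17 to the other. H2BC4 and H2BC18, the remaining genes that were lower in control cells, were in the longer group through the deposited length of their most counted model. Whether the groups differ was not tested.

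After WTAP/KIAA1429 RNAi, a single histone gene changed in the nucleus. H2AC25 fell by 0.58 on the log2 scale (SE 0.12, FDR 0.0377), with 27.8 ± 1.47 CPM in control and 18.6 ± 2.41 CPM in RNAi nuclei (SD, n = 3 each). In bulk RNA, fewer cells in S phase and less histone RNA per cell cannot be told apart. H2AC25 was 1 of 21 genes called lower, beside 2.42% of all tested genes, and 0 of 21 were called higher, beside 2.47%. H2AC25 was also the only one of the 21 with an unadjusted p under 0.05 and the only one called by DESeq2. The sample values showed the same gene only, since H2AC25 had all RNAi nuclei below all control nuclei and no histone gene had all above, beside 13.8% and 14.3% of all genes. H2AC25 kept its direction in all 20 alternatives (-0.68 to -0.47) and passed in 13. It did not pass when any one of RNAi nuclear replicates 1, 2 or 3 or control nuclear replicate 3 was left out (FDR 0.119, 0.113, 0.140 and 0.135), with library size scaling (0.120) or with limma on TPM (0.183 and 0.240), in a range of adjusted p over its alternatives from 0.00264 to 0.240. H1-2 stood at 0.15 (SE 0.20, FDR 0.699) and H1-4 at 0.45 (SE 0.41, FDR 0.574). The median over the 20 genes was 0.15 with 13 positive (the identical H3C14 and H3C15 both counted), and without RNAi nuclear replicate 2 it was -0.29 with 2 of 19 positive. A lower median without that library follows from how it was singled out. Without that library 0 histone genes were called, beside 0.306% lower and 0.356% higher over all genes.

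In the cytoplasm, H2AC25 and H2AC11 were lower after RNAi. H2AC25 fell by 0.55 (SE 0.18, FDR 0.0565), close to its fall in the nucleus, and H2AC11 fell by 1.06 (SE 0.38, FDR 0.0778). These were 2 of 21 lower beside 14.2% of all tested genes, with 0 higher beside 10.4%. At an unadjusted p under 0.05 there were 3, with no share of all tested genes given beside it, and DESeq2 called H2AC25 lower and none higher. H2BC5 (-0.78, SE 0.33, FDR 0.125) and H2BC4 (-1.54, SE 0.75, FDR 0.177) had larger or similar estimates that did not pass, and H2BC15 (0.66, SE 0.49, FDR 0.375) had the highest. When RNAi nuclear replicate 2 was left out of the fit, H2BC5 passed as well (-0.78, SE 0.29, FDR 0.0971). H1-2 (0.03, SE 0.29, FDR 0.958) and H1-4 (0.14, SE 0.54, FDR 0.886) had estimates near 0 with wide errors. Without RNAi cytoplasmic replicate 2 neither H2AC25 (FDR 0.141) nor H2AC11 (FDR 0.211) passed, and H2AC11 was also lost without RNAi cytoplasmic replicate 1 (FDR 0.103) and without RNAi nuclear replicate 1 (FDR 0.107). Over their alternatives the adjusted p ranged from 0.029 to 0.160 for H2AC25 and from 0.0326 to 0.211 for H2AC11. The single control cytoplasmic sample limits this comparison most, since its own deviation cannot be told apart from an RNAi effect.

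**Figure D5:**
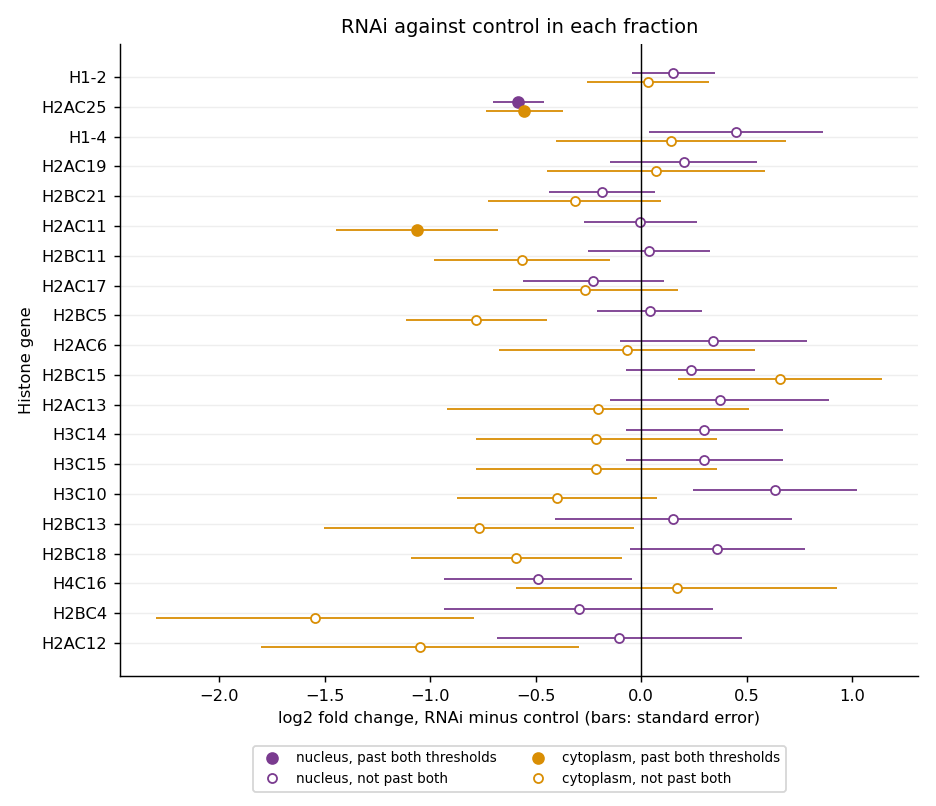
Log2 fold change of RNAi against control in the nucleus (purple) and in the cytoplasm (orange) for 20 histone genes; points are edgeR estimates from all 9 samples, bars are standard errors, and filled points passed both thresholds. H2AC25 is below 0 by about the same amount in both fractions, H2AC11 passes in the cytoplasm alone, and the other estimates did not pass.

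The comparison the study was designed for, the change in nuclear/cytoplasmic ratio after RNAi, gave no histone gene in either direction. It called 0 of 21 higher and 0 lower, beside 10.4% and 7.87% of all tested genes, and DESeq2 also gave 0. At an unadjusted p under 0.05 there was 1, H2AC11 (1.06, SE 0.47, FDR 0.173). The ratio of H2AC25 changed by -0.03 (SE 0.22, FDR 0.958), its fall being similar in both fractions, that of H1-2 by 0.12 (SE 0.35, FDR 0.858) and that of H1-4 by 0.31 (SE 0.68, FDR 0.812). The standard errors of the other tested genes with a value in the cytoplasm ran from 0.42 (H2BC5) to 1.00 (H2BC4). The median over the 20 genes was 0.51 with 17 positive, against -0.05 over all tested genes. Without RNAi nuclear replicate 2 the median was 0.02 with 10 of 19 positive, so that the shift was not seen without that library. Since the library was singled out by these same genes, a lower median without it follows from that choice. H3C14 and H3C15, whose estimates are identical, both count among the positive genes, and both medians are their value.

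Replication-independent histone genes, which are spliced, polyadenylated and expressed through the cell cycle, were far more abundant in these libraries. H3-3A measured 375.1 to 459.7 CPM in nuclei and 868.9 to 1076 CPM in cytoplasm, and H1-10 measured 290.9 to 356.4 and 635.3 to 941.0 CPM. Of 12 listed, 11 were tested, and 7 were lower in the nucleus of control cells and 8 in that of RNAi cells, beside 22.7% and 24.9% of all tested genes, with none higher. In the ratio after RNAi, 1 of 11 was lower and 0 were higher, beside 7.87% and 10.4%. The lower one, H1-10, a linker histone, changed by -0.71 (SE 0.17, FDR 0.0249) and rose in the cytoplasm by 0.54 (SE 0.14, FDR 0.0222).

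The factors that act on histone genes and their mRNAs were listed by role. Of 19 for transcription and 3′ end formation, 3 rose in nuclear/cytoplasmic ratio and 0 fell, beside 10.4% and 7.87% of all tested genes. NPAT, the coactivator of histone gene transcription, rose by 2.21 (SE 0.40, FDR 0.00939), with 5.79 to 10.9 CPM in control nuclei, 10.1 to 13.6 in RNAi nuclei, 13.0 in control cytoplasm, and 4.28 and 3.61 in RNAi cytoplasm. CASP8AP2 (FLASH), which joins NPAT at the histone locus body and takes part in 3′ end processing, rose by 2.77 (SE 0.53, FDR 0.0110), and NCBP1, the large cap-binding subunit, rose by 0.57 (SE 0.17, FDR 0.0492). SLBP itself changed by -0.01 (SE 0.15, FDR 0.977), with 45.6 to 48.8 CPM in control nuclei, 39.1 to 42.5 in RNAi nuclei, 90.6 in control cytoplasm, and 80.9 and 77.1 in RNAi cytoplasm. In the nucleus CASP8AP2 rose by 1.01 (FDR 0.0494) and SNRPE, a core snRNP protein, fell by 0.79 (FDR 0.0713). In the cytoplasm LSM10 (0.82, FDR 0.0429) and LSM11 (0.71, FDR 0.0684), which are found in the U7 snRNP of histone 3′ end cutting, and SRRT (ARS2, 1.05, FDR 0.0647) rose, while NPAT (-1.71, FDR 0.00681), CASP8AP2 (-1.76, FDR 0.0260), NCBP1 (-0.70, FDR 0.00659) and the endonuclease gene CPSF3 (-0.53, FDR 0.0380) fell.

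Of 10 genes for histone mRNA translation and decay, 3 rose and 2 fell in ratio, beside the same 10.4% and 7.87%. The exonucleases XRN1 (2.29, SE 0.42, FDR 0.00976) and DIS3 (1.99, SE 0.19, FDR 0.000831) and the uridyltransferase TUT4 (1.69, SE 0.26, FDR 0.00488) rose, each with a fall in the cytoplasm (-1.76, -1.69 and -1.31). MIF4GD (SLIP1), which joins SLBP to translation factors, fell in ratio by 0.83 (SE 0.17, FDR 0.0142) and UPF1, a helicase of histone mRNA decay, fell by 0.51 (SE 0.14, FDR 0.0453), and both rose in the cytoplasm (0.89 and 0.60). In the nucleus 0 of the 10 passed, beside 2.42% lower and 2.47% higher over all tested genes, with 3 at an unadjusted p under 0.05. The share of all tested genes under that p is not given. Of 6 histone chaperone genes, ASF1A rose in ratio by 1.32 (SE 0.41, FDR 0.0621) and CHAF1A, a subunit of the chromatin assembly factor CAF-1, fell by 0.57 (SE 0.18, FDR 0.0690). Their cytoplasmic levels moved the other way, at -1.62 (FDR 0.00718) and 0.52 (FDR 0.0375). In the nucleus 0 of the 6 passed, beside the same 2.42% and 2.47%, with 2 at an unadjusted p under 0.05, again with no share of all tested genes beside it. ASF1B (-0.28, FDR 0.0769) passed the FDR there but not the fold change threshold.

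Among 18 S phase genes, 2 rose and 5 fell in ratio, again beside 10.4% and 7.87% of all tested genes. CCNE2 (cyclin E2, 1.70, SE 0.37, FDR 0.0179) and the helicase subunit gene MCM4 (0.68, SE 0.23, FDR 0.0843) rose. CDT1 (-1.11, FDR 0.00348), a licensing factor, the helicase subunit genes MCM2 (-0.64, FDR 0.0232), MCM5 (-0.61, FDR 0.0353) and MCM7 (-0.53, FDR 0.0838), and E2F1 (-0.58, FDR 0.0493), a transcription factor of S phase entry, fell. In the cytoplasm CDT1 (1.22, FDR 0.000812) and E2F1 (0.63, FDR 0.0126) rose, and CCNE2 (-1.68, FDR 0.00476), CCNA2 (cyclin A2, -0.75, FDR 0.0119), CDC6 (a licensing factor, -0.62, FDR 0.0165) and RRM1 (a ribonucleotide reductase subunit, -0.51, FDR 0.0427) fell. In the nucleus 0 of the 18 were called, beside 2.42% lower and 2.47% higher over all tested genes, with 6 at an unadjusted p under 0.05. The share of all tested genes under that p is not given, so the 6 cannot be set against it. CDC6 (-0.42, FDR 0.0559), MCM6 (-0.39, FDR 0.0559) and MCM7 (-0.36, FDR 0.07355) passed the FDR there but not the fold change threshold. Of the 18 nuclear estimates, 11 were negative and 7 positive. The summed nuclear level of the 18 S phase genes was 2544 to 2595 CPM in control and 2315 to 2433 CPM in RNAi cells, without overlap. The part of this difference in the nuclear fall of H2AC25 was not tested.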

How the data were processed

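The authors removed 5′ bases with cutadapt, merged lanes and quantified transcripts with salmon against Ensembl 75 (hg19). They deposited, per sample, estimated counts and TPM for 215170 transcripts, with no normalization between samples. The deposited TPM divide by effective length and sum to the same total in every sample, and the deposited lengths and effective lengths, in bases, entered the length offset and the form assignment. Salmon divides reads shared between near-identical copies, and its version is not given in the sources used here.

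The members and lists were chosen with earlier results of these data known. Transcripts were matched by identifier to GENCODE 44 on GRCh37 (85.1%, carrying 83.07% to 88.31% of counts). Deposited lengths of 36 of 58 histone transcripts differed from it. Estimated counts were summed per gene, rounded and fitted with edgeR 4.0.16 in R 4.3.3 across all 16181 genes with at least 10 counts in at least 3 samples (TMM, 4 groups, quasi-likelihood test, 5 residual degrees of freedom). The fit was tested on simulated data. CPM use TMM library sizes. Calls needed an FDR under 0.1 and a log2 fold change beyond 0.5, the thresholds of the study's methods. Counts at an unadjusted p under 0.05 are given without the share of all tested genes under that p. Values per sample are given for the 12 genes with the highest mean CPM and for those called after RNAi, and list genes are named where called in ratio, nucleus or cytoplasm, with SLBP and NPAT always, except for a result that is not reported here. H2BC13, H2BC18, H2BC4, H2AC12, H3C10, H4C16, H3C14, H3C15 and H4C11 were named beyond that after their values were seen, and H2BC18, H2BC4 and H3C10 for their calls between fractions. Other settings were DESeq2 1.42.0, limma 3.58.1 on log2(TPM + 1) and log2(TPM + 0.1), 2 other scalings, other filters, a length offset, unmatched transcripts kept, a replicate block, an FDR of 0.05 and leaving out each sample. Leaving H4C11 out of the H4 sum and of the medians by form was added after seeing the data.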

Additional observations from a re-analysis of the deposited data

How the results depend on the processing

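The 0 of 21 histone genes in the nuclear/cytoplasmic ratio stayed 0 in both directions under every setting run. For RNAi against control in the nucleus, the 1 lower gene became 0 with library size only and with both limma fits, and ranged from 0 to 1 when samples were left out. In the cytoplasm, the 2 lower genes became 1 with the DESeq2 Wald test and with unmatched transcripts kept, 4 with no filter, and 0 with the length offset, the replicate block, both limma fits and an FDR of 0.05, and ranged from 0 to 3 when samples were left out. With library size only and with at least 10 counts in every sample, 3 genes were lower in the cytoplasm. Between fractions in control cells, the 1 higher gene became 0 with library size only, the DESeq2 Wald test, the length offset, unmatched transcripts, both limma fits and an FDR of 0.05, became 2 with no filter and the block, and ranged from 0 to 1 when samples were left out. The 6 lower genes became 3 with the DESeq2 Wald test, at least 10 counts in every sample, the block and limma on log2(TPM + 0.1). They became 4 with unmatched transcripts, limma on log2(TPM + 1) and an FDR of 0.05. With library size only and the length offset they became 5, and with no filter 9. Their number ranged from 4 to 7 when samples were left out. In RNAi cells, the 1 higher gene became 2 with library size only, no filter, at least 10 counts in every sample, the block and both limma fits, and ranged from 1 to 2, while the 2 lower genes became 1 with library size only, the DESeq2 Wald test, the stricter filter, unmatched transcripts, both limma fits and an FDR of 0.05, and ranged from 0 to 6 when samples were left out.

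By TPM the share in forms past the stem-loop was 8.8% in control nuclei, 9.8% in RNAi nuclei, 9.5% in control cytoplasm and 8.1% in RNAi cytoplasm. No called gene reversed its sign. Library size scaling moved the median of all genes to -0.24 in the cytoplasm, 0.31 between fractions in RNAi cells and 0.23 in the ratio. Replicate numbers were not treated as pairing the samples in the main fit. The correlations of same-numbered control and RNAi nuclei were 0.19, 0.11 and 0.04, and those of differently numbered ones ran from -0.17 to 0.06. For each control nucleus the same-numbered RNAi nucleus gave the highest value. Whether same-numbered samples share an origin was not tested. Genes with few counts, and the single control cytoplasmic sample, limit every comparison, and the causes of these changes were not tested.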
